A study of Mus musculus with 9 samples.

Results

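The 36 genes described here encode the enzymes of glycolysis, the carriers that bring glucose in and take lactate out, the kinases that steer pyruvate and fructose phosphates, and a group of genes known to be induced in low oxygen. They were chosen by gene symbol from pathway knowledge, not by a measured value, though with earlier results of these data known. All 36 were found among the 55453 lines of the count table. They comprise 16 glycolytic enzymes, 3 transporters, 5 flux regulators, 9 hypoxia-inducible genes and 3 genes of the hypoxia-inducible factor (HIF) system. After a filter on low counts, 35 of the 36 remained among the 13568 genes tested; Aldoc, a brain-enriched aldolase, had 19 counts over the unfed libraries, 21 over the fed 3 h libraries and 11 over the fed 24 h libraries, and was not tested.

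RNA-seq was performed on ST2, a wild-type mouse bone marrow stromal cell line that came from a Whitlock-Witte type marrow culture, in 3 groups of 3 libraries each. Unfed cells were collected at 24 h and received no neutrophils. The other two groups were given human blood neutrophils that had been kept frozen (18 h or longer) and then marked with the dye eFluor670, at 10 neutrophils per ST2 cell, and were collected after 3 h (fed 3 h) or 24 h (fed 24 h). Fed cells were those sorted as dye positive, at a level matching the uptake of at least 1 whole neutrophil. All groups grew in normoxia in a medium without ascorbic acid. No unfed 3 h library is among the samples, so at 3 h feeding and collection time cannot be told apart, and in both fed groups feeding and selection by the sort cannot be told apart. ST2 is 1 established line, not primary marrow stroma, and nothing in the labels says that the libraries came from separate cultures, so p-values measure the spread between these libraries, which may be technical. In bulk RNA, fewer cells expressing a gene and less RNA per cell cannot be told apart.

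Glycolysis splits glucose into pyruvate in the cytosol. Hexokinase and phosphofructokinase are its main committed and regulated steps, and lactate dehydrogenase with the monocarboxylate carriers disposes of pyruvate as lactate. Pyruvate dehydrogenase kinases (PDKs) inhibit pyruvate dehydrogenase and so limit the entry of pyruvate into mitochondria. Many genes of both kinds are known targets of HIF-1, whose alpha subunit is marked for destruction in normoxia by prolyl hydroxylases (the Egln genes), enzymes that use oxygen and iron and are helped by ascorbate. HIF-1α is controlled largely at the protein level, which mRNA counts do not measure.

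The libraries held 44442664 to 55971275 assigned counts each, and levels are given as CPM (counts scaled to a fixed library total) scaled by TMM factors between 0.963645 and 1.02474. Transcripts of the mitochondrial genome took 1.118 to 2.215% of counts, highest in the fed 24 h libraries, and 2 genes that overlap ribosomal RNA sequence took 0.09042 to 0.3501%. Of the stromal markers, Cxcl12, Col1a1 and Col1a2 were abundant in all 9 libraries, and the summed level of 10 stromal markers was 30065 to 32286 CPM in unfed, 27062 to 27862 in fed 3 h and 33312 to 35016 in fed 24 h cells; Thy1 was at 0 in the unfed and fed 24 h libraries. The 14 mouse neutrophil markers summed to 2.32 to 2.95, 0.755 to 1.42 and 3.45 to 4.31 CPM in the same order, most of it Camp, with S100a9, Ngp and Cd177 at 0 in every library. The 11 macrophage markers summed to 23.3 to 25.4, 27.9 to 28.9 and 24.7 to 28.1 CPM. Most of it was Cd14, with means of 18.4, 23.4 and 18.3 CPM. Lyz2, next in level, was lowest in fed 3 h cells, with means of 4.34, 2.74 and 6.73 CPM. Adgre1, C1qa, C1qb, C1qc and Fcgr1 were at 0 throughout. Whether these differences, or any reads of the human neutrophils assigned to mouse genes, have a part in the values below was not tested.

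Glycolytic transcripts were abundant in ST2 cells in all 3 groups, and the summed level of the pathway is given on 2 scales. The 16 enzymes together reached 8522 to 8986 CPM in the unfed libraries, 8273 to 8712 in the fed 3 h libraries and 7818 to 8584 in the fed 24 h libraries. On this TMM-scaled level the 3 ranges overlapped. As a share of each library's unscaled counts they took 0.865 to 0.897% in unfed, 0.821 to 0.851% in fed 3 h and 0.801 to 0.859% in fed 24 h libraries, so on that scale both fed groups were below the unfed one. On the scale of CPM per kilobase of exon, which allows genes to be compared, Pkm, the pyruvate kinase gene, ranked first of the 36 members in every group, with means of 448.8, 463.1 and 415.7 in unfed, fed 3 h and fed 24 h cells. Ldha, the main lactate dehydrogenase gene, ranked second with 369.9, 321.0 and 337.4. Ranks depend on the length used, here all exons of a gene merged. That length is 3310 bases for Ldha and 3710 for Aldoa, whereas their longest transcripts have 1815 and 1549. Vegfa stood at rank 21 in unfed, rank 11 in fed 3 h and rank 18 in fed 24 h cells, on the same per-length scale. Adm, which encodes the vasodilator peptide adrenomedullin, stood at rank 13, rank 20 and rank 13 in the same order of groups.

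**Figure D1:**
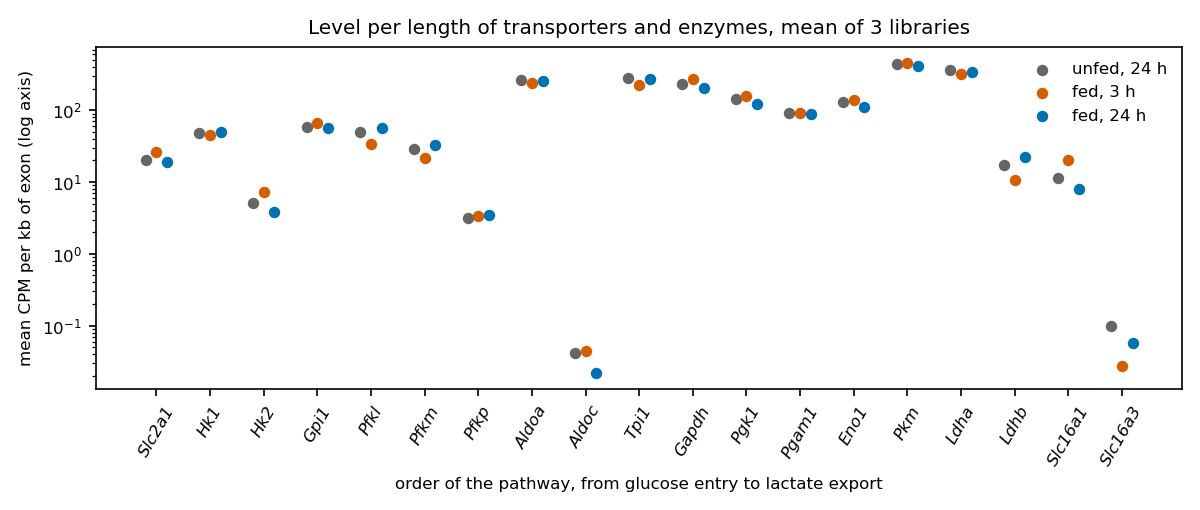
Mean level per kilobase of exon (log axis) of the transporters and enzymes in pathway order, from glucose entry to lactate export, for unfed 24 h, fed 3 h and fed 24 h cells (means of 3 libraries). The points of the 3 groups lie close together over Pkm (415.7 to 463.1) and the other abundant enzymes and separate at low-level members such as Hk2, Slc16a1 and Ldhb.

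Among the tested members, 15 of 35 (42.9%) were called in fed 24 h against unfed 24 h cells, 8 higher and 7 lower, where a call is an adjusted p under 0.05 in edgeR's quasi-likelihood test over all 13568 genes; 30.8% of all tested genes were called in that comparison, 14.9% higher and 15.9% lower. In fed 3 h against unfed cells 24 of 35 (68.6%) were called, 10 higher and 14 lower, beside 50.6% of all tested genes (25.1% higher and 25.5% lower). In fed 24 h against fed 3 h cells 27 of 35 (77.1%) were called, 15 higher and 12 lower, beside 60.9% of all tested genes (30.8% higher and 30.2% lower). The 3 comparisons share groups, so their counts are not independent of each other. Median sizes were close to those of other genes. Members had a median absolute log2 fold change of 0.13, 0.24 and 0.31 in the 3 comparisons in this order. Over all tested genes it was 0.14, 0.22 and 0.28. The signed medians of the members were −0.05, −0.02 and 0.06. Called with an absolute log2 fold change of at least 0.5 were 1, 10 and 13 of the 35 tested members. Among all tested genes 4.69%, 15.2% and 24.2% were called at that size. The members' share was thus larger in both comparisons with fed 3 h cells and smaller in fed 24 h against unfed cells. The libraries of the 2 groups did not overlap for 16, 26 and 26 of the 35 tested members, in the same order of comparisons. Among all tested genes this held for 43.2%, 58.2% and 65.9%. The count of 8 higher members at 24 h rests on small differences: it was 4 without unfed replicate 3 and 5 without fed 24 h replicate 2.

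**Figure D2:**
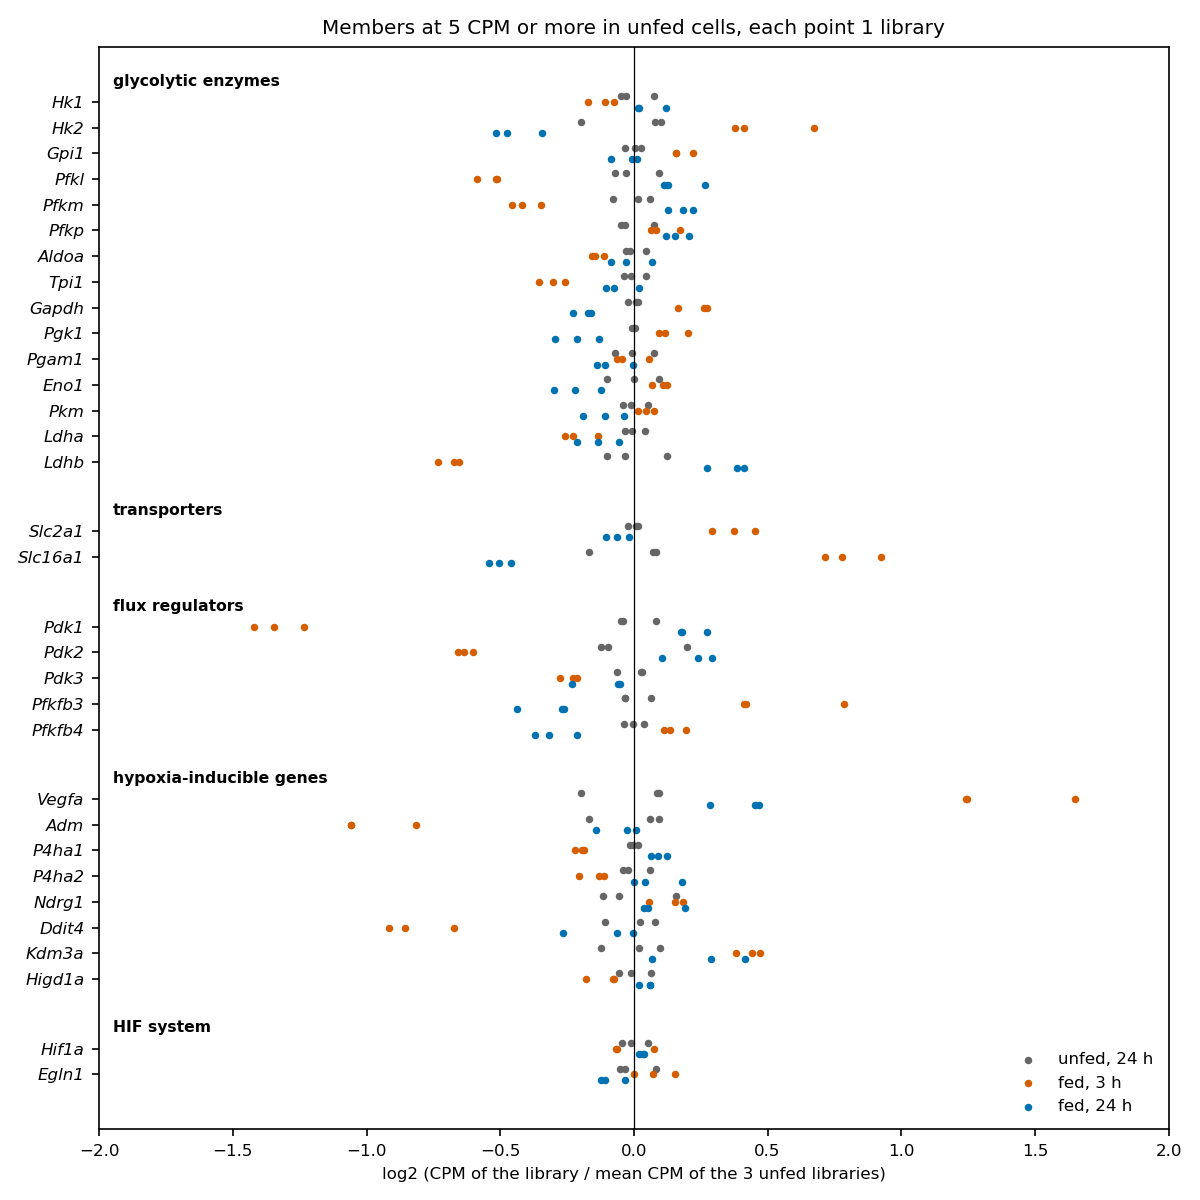
Log2 ratio of each library's CPM to the mean of the 3 unfed libraries, for the members with at least 5 CPM in unfed cells (1 point per library, grouped by role). The fed 3 h points stand farthest to the right for Vegfa and farthest to the left for Pdk1, while the points of Hif1a lie on top of each other.

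All 3 transporters were called at 3 h, 2 higher and 1 lower, and 1 was called at 24 h, lower. Against unfed cells, 50.6% of all tested genes were called at 3 h and 30.8% at 24 h. Slc16a1 (chromosome 3, 104638668 to 104658462, GRCm38) encodes MCT1, which moves lactate and pyruvate with a proton across the plasma membrane. It was at 45.1, 53.2 and 53.7 CPM in the 3 unfed libraries, at 96.2, 83.1 and 86.9 CPM in the fed 3 h libraries and at 36.8, 35.7 and 34.8 CPM in the fed 24 h libraries. Every fed 3 h library was above every unfed library, and every fed 24 h library was below them. The log2 fold change was 0.81 (SE 0.0664, adjusted p 1.03e-07) at 3 h against unfed and −0.50 (SE 0.0681, adjusted p 0.000108) at 24 h against unfed, and it was the single member called past an absolute log2 fold change of 0.5 in the second comparison. Fed 24 h cells were lower than fed 3 h cells by −1.31 (SE 0.0675, adjusted p 3.10e-10).

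Slc2a1 (chromosome 4, 119108711 to 119137983) encodes GLUT1, the basal glucose carrier of many cell types. Its levels were 71.4, 71.0 and 69.7 CPM in unfed, 96.9, 86.6 and 91.5 CPM in fed 3 h and 67.7, 69.8 and 65.7 CPM in fed 24 h libraries. The fed 3 h libraries were all above the others, and the fed 24 h libraries overlapped with the unfed ones. It rose by 0.38 (SE 0.0471, adjusted p 8.70e-06) at 3 h, and the difference of −0.06 at 24 h was not called (adjusted p 0.347). Slc16a3, which encodes the lactate exporter MCT4, was near the limit of counting, with 73 counts over the unfed, 21 over the fed 3 h and 48 over the fed 24 h libraries. Its log2 fold change at 3 h was −1.82 (SE 0.388, adjusted p 0.00107), and −0.79 at 24 h was not called (adjusted p 0.0843). Of the 2 monocarboxylate carrier genes, Slc16a1 held 99.14% of the per-length level in unfed cells, 99.86% at 3 h and 99.31% at 24 h.

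Of the 15 tested glycolytic enzymes, 4 were higher and 6 lower at 3 h, and 4 were higher and 4 lower at 24 h, each against unfed cells. The shares called were 66.7% at 3 h and 53.3% at 24 h, beside 50.6% and 30.8% of all tested genes. The 2 hexokinase genes, whose products trap glucose as glucose 6-phosphate, did not move alike. Hk2 (chromosome 6, 82725025 to 82774454), the inducible isoenzyme, was at 26.8, 33.0 and 32.5 CPM in unfed, 49.0, 40.9 and 39.9 CPM in fed 3 h and 21.5, 24.2 and 22.1 CPM in fed 24 h libraries. The 3 groups did not overlap. Hk2 rose by 0.49 (SE 0.0846, adjusted p 0.000175) at 3 h and was lower by −0.44 (SE 0.0869, adjusted p 0.00156) at 24 h, and fed 24 h stood −0.93 (SE 0.0857, adjusted p 1.56e-07) from fed 3 h cells. Hk1, the broadly expressed isoenzyme, averaged 415 ± 19.7, 382 ± 12.9 and 430 ± 18.0 CPM (SD, n = 3) and was called only in fed 24 h against fed 3 h cells (0.17, adjusted p 0.00578). Its difference of −0.12 at 3 h against unfed just missed the threshold (adjusted p 0.0504) and passed it in 8 of the 17 alternative analyses.

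The genes of phosphofructokinase, the main regulated step of the pathway, included 2 that were lower at 3 h. Pfkl (chromosome 10, 77986947 to 78010083), the liver-type subunit, was at 324, 354 and 316 CPM in unfed, 232, 221 and 232 CPM in fed 3 h and 358, 398 and 362 CPM in fed 24 h libraries. Pfkm (chromosome 15, 98092589 to 98132451), the muscle-type subunit, was at 98.0, 101 and 91.9 CPM, then 70.8, 72.6 and 76.2 CPM, then 106, 113 and 110 CPM. For both genes the fed 3 h libraries were the lowest and the fed 24 h libraries the highest, without overlap. Pfkl fell by 0.54 (SE 0.0531, adjusted p 7.68e-07) and Pfkm fell by 0.41 (SE 0.0480, adjusted p 4.63e-06) at 3 h. At 24 h Pfkl was higher by 0.17 (SE 0.0527, adjusted p 0.0223) and Pfkm by 0.18 (SE 0.0473, adjusted p 0.0103). Both calls at 24 h rest on single libraries: Pfkl was at 0.14 without unfed replicate 3 and at 0.12 without fed 24 h replicate 2, and Pfkm at 0.14 without unfed replicate 3, none of them called. Pfkp, the platelet-type subunit, averaged 42.0 ± 1.99, 45.2 ± 1.84 and 46.9 ± 1.402 CPM, with 0.16 at 24 h (adjusted p 0.0235), a call that was lost without unfed replicate 3 (0.14) or fed 24 h replicate 2 (0.14).

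The middle of the pathway held small differences in both directions. Gapdh (chromosome 6, 125161715 to 125166467), the glyceraldehyde phosphate dehydrogenase that is often used as a reference gene, was at 953, 958 and 934 CPM in unfed, 1137, 1064 and 1146 CPM in fed 3 h and 842, 849 and 810 CPM in fed 24 h libraries. The 3 groups did not overlap, and Gapdh was higher by 0.23 at 3 h (SE 0.0438, adjusted p 0.000353) and lower by −0.19 at 24 h (SE 0.0438, adjusted p 0.00503). Pgk1, the phosphoglycerate kinase that makes the first ATP of the pathway, averaged 323 ± 1.52, 355 ± 14.1 and 279 ± 15.8 CPM, with 0.14 at 3 h (adjusted p 0.0227) and −0.21 at 24 h (adjusted p 0.00363); the call at 3 h was lost without unfed replicate 3 (0.13) or fed 3 h replicate 3 (0.11). Gpi1, the isomerase that follows hexokinase, was higher by 0.18 at 3 h (adjusted p 0.00240) and stood at −0.03 at 24 h (adjusted p 0.668). Tpi1, the triose phosphate isomerase, fell by 0.30 at 3 h (adjusted p 6.12e-05), and Aldoa, the main aldolase here, fell by 0.14 (adjusted p 0.0220), a call that was lost without unfed replicate 2 (−0.12) or without fed 3 h replicate 1 (−0.13) or 2 (−0.13). Neither differed by a called amount at 24 h.

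At the lower end of the pathway the largest differences were in Ldhb. Eno1, the enolase, was at −0.21 at 24 h (adjusted p 0.00888), lost without unfed replicate 2 (−0.16) or fed 24 h replicate 3 (−0.17). Pgam1, the phosphoglycerate mutase, and Pkm were not called against unfed cells at either time. Ldha (chromosome 7, 46841475 to 46855627) was at 1218, 1260 and 1195 CPM in unfed, 1045, 1025 and 1117 CPM in fed 3 h and 1117, 1177 and 1056 CPM in fed 24 h libraries. All fed libraries were below all unfed ones. Ldha fell by 0.20 at 3 h (SE 0.0501, adjusted p 0.00299); the value of −0.13 at 24 h missed the threshold (SE 0.0501, adjusted p 0.0554) and was called in 5 alternatives, among them without fed 24 h replicate 2 (−0.17). Ldhb (chromosome 6, 142490249 to 142507957), whose subunit favours the conversion of lactate to pyruvate, was at 29.6, 25.4 and 26.6 CPM in unfed, 17.0, 16.4 and 17.3 CPM in fed 3 h and 36.2, 32.8 and 35.5 CPM in fed 24 h libraries. The 3 groups did not overlap, and Ldhb fell by 0.69 at 3 h (SE 0.0642, adjusted p 4.36e-07) and rose by 0.36 at 24 h (SE 0.0611, adjusted p 0.000578). Between the fed groups the difference was 1.04 (SE 0.0632, adjusted p 1.72e-09).

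Several members share sequence with other genes, such as pseudogenes. How reads with more than 1 match were counted is not given in the sources used here. Sharing was read from the 50-base stretches of the longest transcript of each member. Eno1 shared 72.194% of them with other genes, Pgk1 67.962%, Pgam1 41.483%, Higd1a 36.555%, Pkm 34.41%, Gapdh 27.809% and Ldhb 27.012%. The levels of these genes are therefore uncertain. The near copy Eno1b held 12.38 to 13.22% of the counts of Eno1 and Eno1b together over all 9 libraries. Hk2, Pfkm, Slc16a1, Pdk1, Pdk2, Adm and Ddit4 shared no such stretch.

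**Figure D3:**
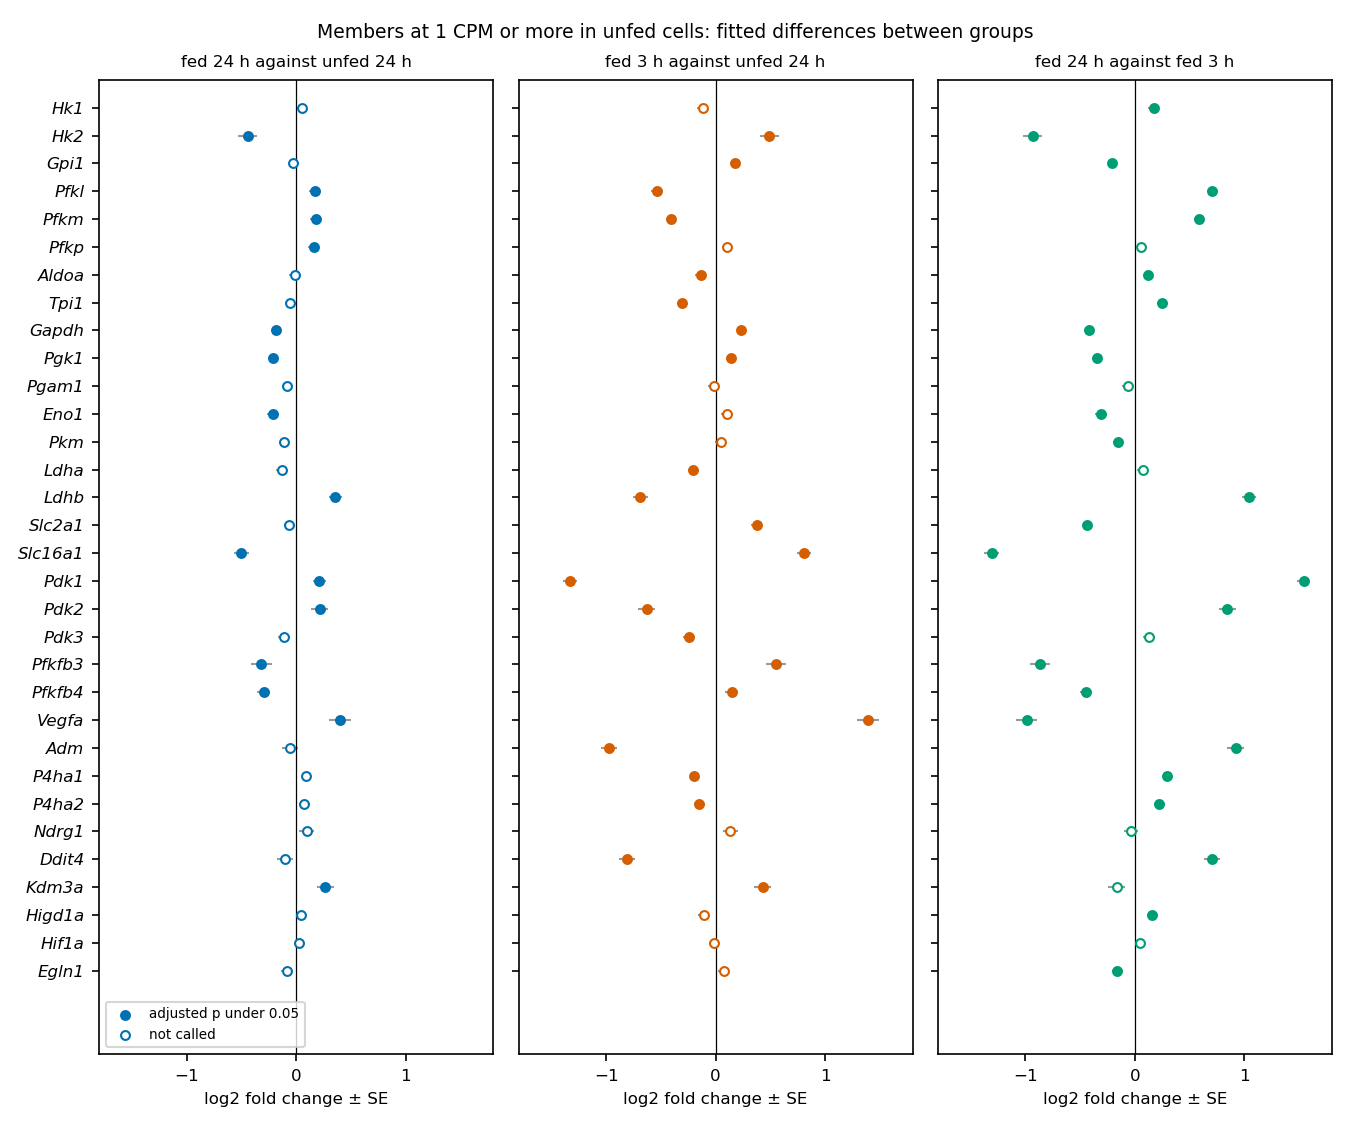
Fitted log2 fold change with its SE for each member at 1 CPM or more in unfed cells, in the 3 comparisons (filled points: adjusted p under 0.05 over all 13568 genes). Fed 24 h against unfed values lie between −0.50 (Slc16a1) and 0.40 (Vegfa), while fed 3 h against unfed values reach −1.33 (Pdk1) and 1.39 (Vegfa).

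All 5 flux regulators were called at 3 h, 2 higher and 3 lower, beside 50.6% of all tested genes. Pdk1 (chromosome 2, 71873224 to 71903858), a pyruvate dehydrogenase kinase and a known HIF-1 target, was at 35.97, 32.8 and 33.0 CPM in unfed, 13.4, 12.7 and 14.4 CPM in fed 3 h and 38.4, 41.0 and 38.3 CPM in fed 24 h libraries. The fed 3 h libraries held less than the lowest unfed library by a wide margin, and the fed 24 h libraries were all above the unfed ones. Pdk1 fell by 1.33 at 3 h (SE 0.0617, adjusted p 2.20e-10), rose by 0.21 at 24 h (SE 0.0569, adjusted p 0.0111), and differed by 1.54 between the fed groups (SE 0.0611, adjusted p 2.55e-11). Pdk2 (chromosome 11, 95026258 to 95041354), a widely expressed kinase of the same family, was at 22.6, 18.1 and 18.4 CPM, then 12.5, 12.7 and 12.99 CPM, then 24.1, 23.2 and 21.2 CPM. Its fed 3 h libraries were all below the rest, and the unfed and fed 24 h libraries overlapped. Pdk2 fell by 0.63 at 3 h (SE 0.0812, adjusted p 1.12e-05). The value of 0.21 at 24 h (SE 0.0773, adjusted p 0.0469) was called by a small margin: 8 alternatives lost it, including 7 of the 9 that left out 1 library, with values from 0.16 to 0.22. Pdk3 fell by 0.24 at 3 h (adjusted p 0.00185) and was at −0.11 at 24 h, not called.

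The bifunctional enzymes Pfkfb3 and Pfkfb4, which set the level of fructose 2,6-bisphosphate, the strongest activator of phosphofructokinase, were higher at 3 h and lower at 24 h. Pfkfb3 (chromosome 2, 11471433 to 11554077) was at 11.7, 12.5 and 11.7 CPM in unfed, 20.6, 16.0 and 15.9 CPM in fed 3 h and 9.95, 9.98 and 8.86 CPM in fed 24 h libraries. The groups did not overlap, with fed 3 h replicate 1 the highest library. Pfkfb3 rose by 0.55 at 3 h (SE 0.0917, adjusted p 0.000134; 0.42 without that library) and was lower by −0.32 at 24 h (SE 0.0950, adjusted p 0.0184), a call that was lost without unfed replicate 2 (−0.29) or fed 24 h replicate 3 (−0.26). Pfkfb4 averaged 19.7 ± 0.5002, 21.8 ± 0.641 and 16.0 ± 0.891 CPM. Its value of 0.15 at 3 h (adjusted p 0.0402) was lost in 9 alternatives, among them without any 1 of the 3 unfed or the 3 fed 3 h libraries (0.13 to 0.17), whereas −0.30 at 24 h (adjusted p 0.00132) was kept in all 17.

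**Figure D4:**
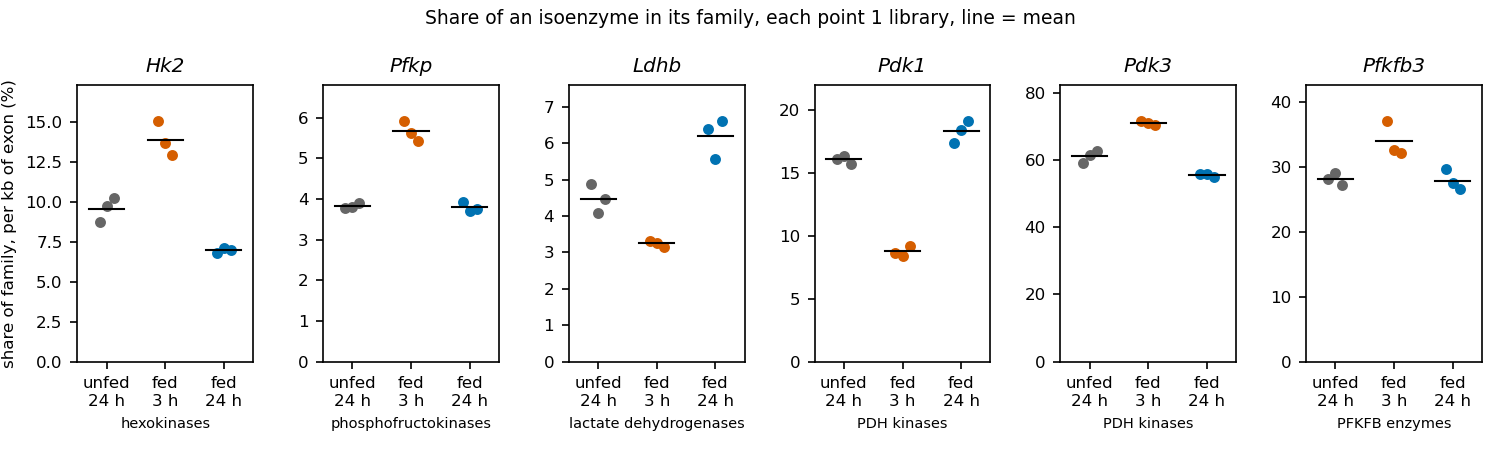
Share of 1 isoenzyme among the member genes of its family, from CPM per kilobase of exon, with 1 point per library and a line at the group mean (each panel has its own axis, starting at 0). Hk2 and Pfkp take a larger share in the fed 3 h libraries, and Ldhb and Pdk1 a smaller one.

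Among the member genes, these shifts changed the make-up of several isoenzyme families at the mRNA level. Hk2 made up 9.57% of the hexokinase pair in unfed cells (range 8.73 to 10.3%), 13.9% at 3 h (12.9 to 15.1%) and 6.99% at 24 h (6.82 to 7.13%). Pfkp made up 3.83%, 5.67% and 3.80% of the 3 phosphofructokinase genes; the unfed libraries spanned 3.78 to 3.89%, the fed 3 h libraries 5.44 to 5.93% and the fed 24 h libraries 3.72 to 3.92%. Ldhb was 4.48% of the lactate dehydrogenase pair in unfed cells (4.07 to 4.88%), 3.25% at 3 h (3.16 to 3.32%) and 6.19% at 24 h (5.55 to 6.62%). Pdk1 was 16.1% of the 3 member PDK genes (15.7 to 16.3%), 8.75% at 3 h (8.43 to 9.22%) and 18.3% at 24 h (17.3 to 19.1%), while Pdk3 held 61.1%, 71.0% and 55.6%. Pdk4, a further PDK gene that is not a member, is left out of these shares. It was higher by 0.19 at 24 h against unfed cells (adjusted p 0.00718). Pfkfb3 was 28.2%, 34.0% and 27.9% of the Pfkfb3 and Pfkfb4 pair. Shares depend on the length used for each gene. With the longest transcript in place of the union of exons, the share of Hk2 was 5.43%, 8.07% and 3.92% in the same order, with the same order of the groups.

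The promoters of 4 members, 2 higher and 2 lower at 3 h, are shown because HIF-1 is known to bind the hypoxia response element, whose core is ACGTG or GCGTG. In each sequence, written 5′ to 3′ on the strand of the gene, capitals mark a core on either strand, and the last 10 bases lie after the RefSeq transcription start.
Slc16a1, chr3:104638414-104638673, plus strand: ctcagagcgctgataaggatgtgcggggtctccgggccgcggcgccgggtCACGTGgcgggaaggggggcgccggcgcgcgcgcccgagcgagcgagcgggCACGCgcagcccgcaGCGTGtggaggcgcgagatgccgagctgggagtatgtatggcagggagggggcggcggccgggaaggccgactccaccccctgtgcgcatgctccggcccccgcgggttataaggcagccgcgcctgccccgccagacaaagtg
Hk2, chr6:82774445-82774704, minus strand: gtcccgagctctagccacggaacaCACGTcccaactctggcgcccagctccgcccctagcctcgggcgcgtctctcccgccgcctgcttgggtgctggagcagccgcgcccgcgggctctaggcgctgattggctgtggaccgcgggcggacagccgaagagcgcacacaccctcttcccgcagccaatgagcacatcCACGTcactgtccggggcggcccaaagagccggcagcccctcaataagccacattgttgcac
Pdk1, chr2:71872974-71873233, plus strand: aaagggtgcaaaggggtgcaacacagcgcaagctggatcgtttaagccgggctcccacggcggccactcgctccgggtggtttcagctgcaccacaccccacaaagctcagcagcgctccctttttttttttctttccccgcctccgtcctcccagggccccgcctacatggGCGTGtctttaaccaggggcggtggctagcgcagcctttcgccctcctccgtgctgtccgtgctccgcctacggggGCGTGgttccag
Ldhb, chr6:142507948-142508207, minus strand: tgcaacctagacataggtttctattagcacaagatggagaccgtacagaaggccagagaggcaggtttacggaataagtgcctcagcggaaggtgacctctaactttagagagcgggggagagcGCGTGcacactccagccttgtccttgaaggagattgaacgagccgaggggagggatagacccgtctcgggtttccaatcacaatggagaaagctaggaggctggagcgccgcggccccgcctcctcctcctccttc
The sequences are RefSeq's on build GRCm38.p6, and the palindrome CACGTG of Slc16a1 counts as a core on both strands. Slc16a1 and Hk2, higher at 3 h and lower at 24 h, held 4 and 2 cores in the bases shown, and Pdk1 and Ldhb, lower at 3 h and higher at 24 h, held 2 and 1. Vegfa had none in the window at its 5′-most start and 2 in a window that starts inside the gene. Over 300-base windows (250 bases before to 50 after a start), 33 of the 35 members with a RefSeq window held a core (94.3%), all but Gpi1 and Tpi1. The same holds for 46.7% of 27025 genes and for 67.4% of the 9911 tested genes with a window. A gene was counted if any of its windows held a core, and some genes have several windows. By window, a core was held by 78.8% of 52 member windows and 43.8% of all 32851 windows. With ACGTG alone the shares were 71.4% of members, 21.8% of genes and 29.2% of tested genes. In these windows, members lower at 3 h held from 0 (Tpi1) to 7 cores (Ldha). Members higher at 3 h held from 0 (Gpi1) to 5 (Slc16a1). The 4 promoters shown were picked for display, and whether the number of cores goes with direction was not tested. The members were chosen in part as known HIF-1 targets, and a match of letters is not a bound site.

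Of the 9 hypoxia-inducible members, 2 were higher and 4 lower at 3 h, and 2 were higher and 0 lower at 24 h, against unfed cells. The shares called were 66.7% at 3 h and 22.2% at 24 h, beside 50.6% and 30.8% of all tested genes. Vegfa (chromosome 17, 46016993 to 46032369), the vascular endothelial growth factor gene, was at 64.0, 78.1 and 78.4 CPM in unfed, 231, 174 and 174 CPM in fed 3 h and 101, 89.5 and 102 CPM in fed 24 h libraries. All fed libraries were above all unfed ones, and fed 3 h replicate 1 was the highest. Vegfa rose by 1.39 at 3 h (SE 0.0997, adjusted p 2.59e-08; 1.25 without that library), was higher by 0.40 at 24 h (SE 0.0994, adjusted p 0.00658), and differed by −0.99 between the fed groups (SE 0.0980, adjusted p 3.59e-07). Kdm3a, a histone demethylase, averaged 21.04 ± 1.61, 28.4 ± 0.884 and 25.3 ± 3.03 CPM, with 0.43 at 3 h (adjusted p 0.000287). Its value of 0.26 at 24 h (adjusted p 0.0184) was lost when unfed replicate 1 (0.21), fed 24 h replicate 1 (0.26) or fed 24 h replicate 3 (0.18) was left out, and the groups overlapped.

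Other classical hypoxia targets went down at 3 h. Adm (chromosome 7, 110627661 to 110629820) was at 58.9, 60.2 and 50.3 CPM in unfed, 27.1, 27.1 and 32.1 CPM in fed 3 h and 51.1, 55.5 and 56.7 CPM in fed 24 h libraries. Ddit4 (chromosome 10, 59949669 to 59951834), which encodes the mTORC1 inhibitor REDD1, was at 45.0, 41.1 and 46.8 CPM, then 23.5, 24.5 and 27.8 CPM, then 36.9, 42.4 and 44.2 CPM. For both genes the fed 3 h libraries were all below the rest, and the fed 24 h libraries overlapped with the unfed ones. Adm fell by 0.97 (SE 0.0760, adjusted p 6.27e-08) and Ddit4 fell by 0.81 (SE 0.0760, adjusted p 4.54e-07) at 3 h. At 24 h neither was called, at −0.05 (adjusted p 0.623) and −0.10 (adjusted p 0.304). The collagen prolyl 4-hydroxylase subunits P4ha1 and P4ha2, which modify procollagen, fell by 0.20 (adjusted p 0.000472) and 0.15 (adjusted p 0.0236) at 3 h and were not called at 24 h; the call of P4ha2 was lost without unfed replicate 2 (−0.12) or fed 3 h replicate 2 (−0.12). Ndrg1, Ankrd37 and Higd1a were not called against unfed cells at either time, and Ankrd37 rested on 71, 77 and 77 counts per group.

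Of the 3 genes of the HIF system, 0 were called against unfed cells at either time. Among all tested genes, 50.6% were called at 3 h and 30.8% at 24 h. Hif1a (chromosome 12, 73901375 to 73947530) was at 193, 180 and 185 CPM in unfed, 196, 177 and 178 CPM in fed 3 h and 188, 190 and 191 CPM in fed 24 h libraries. The 3 groups overlapped. The log2 fold change was −0.02 at 3 h (95% interval −0.12 to 0.08, adjusted p 0.773) and 0.03 at 24 h (95% interval −0.07 to 0.13, adjusted p 0.658). Egln1, the main prolyl hydroxylase of HIF-1α, averaged 108 ± 5.51, 114 ± 6.06 and 102 ± 3.39 CPM and was not called against unfed cells. Between the fed groups it was called at −0.16 (adjusted p 0.0110), a call lost without fed 3 h replicate 3 (−0.12) or fed 24 h replicate 1 (−0.14). Egln3, a hydroxylase that is itself a HIF target, had 45, 27 and 64 counts per group and was called between the fed groups alone (1.09, adjusted p 0.0308), a call lost without fed 3 h replicate 1 (0.80) or without fed 24 h replicate 1 (1.10) or 3 (0.93).

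The same comparisons were read for other genes of these pathways, in lists compiled from pathway knowledge; each list's share of called genes is to be read against 50.6% of all tested genes at 3 h and 30.8% at 24 h. Of 14 tested HIF pathway components, 2 were higher and 5 lower at 3 h (50.0% called, close to the share of all genes), and 2 were higher and 5 lower at 24 h (50.0%). Epas1, which encodes HIF-2α, was at 43.4, 35.8 and 41.5 CPM in unfed, 21.9, 21.7 and 19.2 CPM in fed 3 h and 72.4, 66.7 and 76.5 CPM in fed 24 h libraries. The groups did not overlap, and Epas1 fell by 0.94 at 3 h (adjusted p 8.39e-08) and rose by 0.84 at 24 h (adjusted p 3.40e-06). Vhl, the subunit that recognises hydroxylated HIF-α for degradation, was lower at both times, by −0.40 (adjusted p 0.000141) and −0.31 (adjusted p 0.00270). Hif1an, the asparaginyl hydroxylase FIH, was at −0.43 at 24 h (adjusted p 7.82e-05), and Os9 was at 0.37 (adjusted p 2.27e-05).

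Of 28 tested further hypoxia-inducible genes, 11 were higher and 11 lower at 3 h (78.6% called), and 7 were higher and 3 lower at 24 h (35.7%). Their median absolute log2 fold change was 0.37 at 3 h and 0.16 at 24 h. Stc1, which encodes stanniocalcin 1, was at 2.41, 1.07 and 2.07 CPM in unfed, 0.210, 0.239 and 0.280 CPM in fed 3 h and 5.78, 4.77 and 6.01 CPM in fed 24 h libraries. Its fed 24 h libraries were above all others, by 1.58 against unfed cells (adjusted p 8.12e-05). Bnip3, a mitophagy receptor, fell by 0.79 at 3 h (adjusted p 1.41e-07), and Bhlhe41, a transcriptional repressor, rose by 0.93 (adjusted p 4.74e-06).

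The routes that take pyruvate and glucose 6-phosphate elsewhere were read in the same way. Of 12 tested genes for the entry of pyruvate into mitochondria, 1 was higher and 6 lower at 3 h (58.3% called), and 2 were higher and 1 lower at 24 h (25.0%). Pcx, the pyruvate carboxylase that feeds oxaloacetate into the citric acid cycle, was at 68.5, 65.2 and 62.8 CPM in unfed, 32.0, 31.0 and 31.6 CPM in fed 3 h and 74.4, 78.8 and 73.2 CPM in fed 24 h libraries. It fell by 1.05 at 3 h (adjusted p 2.18e-10) and was 0.20 higher at 24 h (adjusted p 0.00416), without overlap of the groups. Pdp1, a phosphatase that reverses the action of the PDKs, fell by 0.78 at 3 h (adjusted p 3.45e-05), and Dlat, a core subunit of pyruvate dehydrogenase, rose by 0.34 (adjusted p 1.47e-05). Of 8 pentose phosphate genes, 0 were higher and 3 lower at 3 h (37.5% called, below the share of all genes), among them G6pdx at −0.42 (adjusted p 1.47e-06) and Tkt at −0.41 (adjusted p 7.21e-07), and 2 were lower at 24 h (25.0%). Of 16 citric acid cycle genes, 3 were higher and 5 lower at 3 h (50.0% called, close to the share of all genes) and 2 were higher and 5 lower at 24 h (43.8%). Against unfed cells their named values lay between −0.33 (Sdhc at 3 h) and 0.18 (Idh3a at 3 h). Of 8 tested genes for other glycolytic isoenzymes and sugar carriers (20 listed), 3 were higher and 2 lower at 3 h (62.5% called) and 2 were higher and 1 lower at 24 h (37.5%), with Tigar, a fructose bisphosphatase, at 0.25 at 3 h (adjusted p 0.00669) and the sugar carrier Slc2a8 at 0.22 at 24 h (adjusted p 0.0249).

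**Figure D5:**
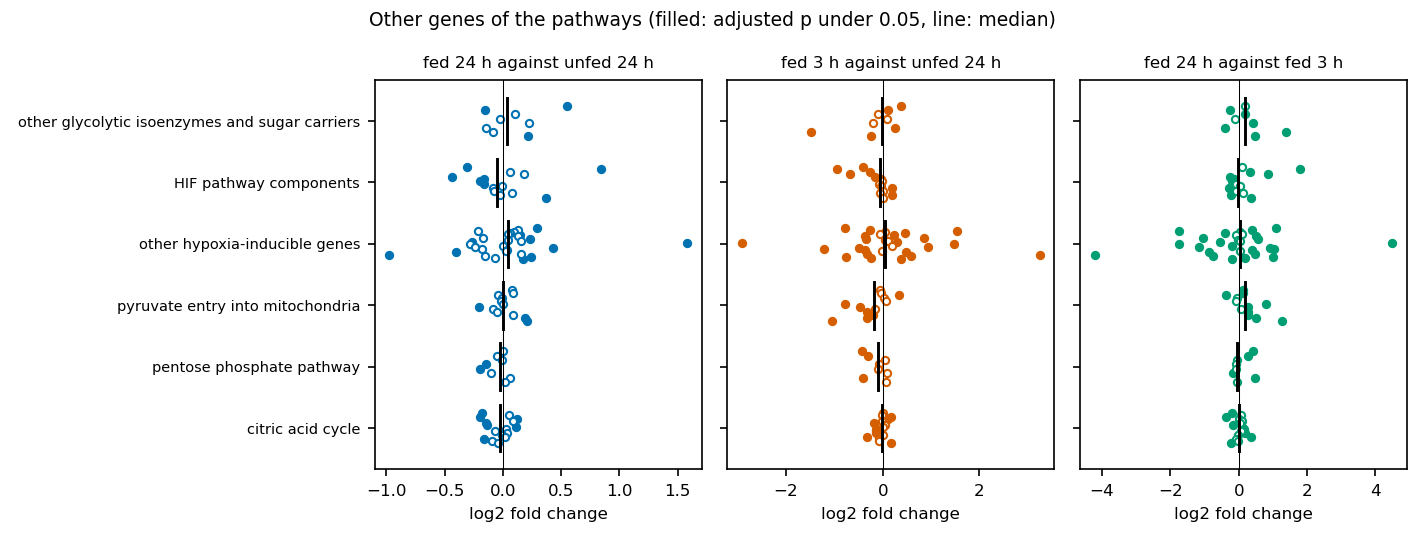
Log2 fold change of each tested gene in 6 further lists, in the 3 comparisons (filled points: adjusted p under 0.05; line: median of the list; each panel has its own axis). Medians lie between −0.17 and 0.20, and the widest spread is among the other hypoxia-inducible genes, with Stc1 the lowest at 3 h (−2.91).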

How the data were processed

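Gene counts of 9 ST2 libraries (3 per group) were read from 1 deposited table. Per the submitters' processing notes, the authors used the builds GRCm38.p6 and GRCh38.p13, the aligner STAR 2.7.0f, featureCounts from Subread 1.6.4, and MultiQC 1.7. For the strand setting, annotation release and handling of multi-mapped reads, nothing was given in the sources used here. The labels' protocols name different library kits (TruSeq Stranded mRNA from 50 ng RNA, or SMART-Seq v4 with Nextera XT from 1 ng), so whether strand was kept is unresolved, and reads of overlapping antisense genes cannot be told apart. Counts as deposited were tested with edgeR 4.0.16 (filterByExpr, TMM, quasi-likelihood F-test, 1 fit of 3 groups, common biological coefficient of variation 0.05356), with Benjamini-Hochberg adjustment over 13568 genes and calls at an adjusted p under 0.05. The script was tested on simulated data. Alternatives were DESeq2 1.42.0 (test, or size factors in edgeR), limma-voom 3.58.1, 2 other filters, 6 libraries only, a replicate block, removal of ribosomal-RNA-linked and mitochondrial genes, and leaving out each library. Intervals cover the spread between libraries. Lengths and coordinates are from GENCODE M21, and promoter windows from RefSeq (35 of 36 members matched). Members and lists were chosen with earlier results of these data known. Values per library are given for members called with an absolute log2 fold change of at least 0.5 and 5 CPM or more in the higher group, and for Hif1a, Gapdh, Ldha, Slc2a1, Vegfa and Pdk1; of each further list, up to 2 called genes per direction and comparison with the largest changes and 5 CPM or more qualified. One gene that qualified is not reported here.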

Additional observations from a re-analysis of the deposited data

Results flagged for a closer look

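These members were called in opposite directions at 3 h and at 24 h against the same unfed libraries, and their difference between the fed groups is given here as a description (fed 24 h against fed 3 h, log2 scale, 3 libraries per group). Opposite calls against a shared group all but fix the direction and size of that difference, so it adds no support of its own. In addition, the fed groups differ in time of collection as well as time since feeding. Lower in fed 24 h than in fed 3 h cells were Slc16a1 (−1.31 on the log2 scale), Hk2 (−0.93), Pfkfb3 (−0.87), Pfkfb4 (−0.44), Gapdh (−0.42) and Pgk1 (−0.35). Higher were Pdk1 (1.54), Ldhb (1.04), Pdk2 (0.84), Pfkl (0.71) and Pfkm (0.59). The calls against unfed cells of Pfkl, Pfkm, Pdk2 and Pfkfb3 at 24 h and of Pgk1 and Pfkfb4 at 3 h were lost in at least 1 alternative.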

How the results depend on the processing

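No called value of a member changed sign in any of the 17 alternatives, and 7 values that were not called did. The count of members higher in fed 24 h than in unfed cells was 8 and moved to 4 without unfed replicate 3 and to 5 without fed 24 h replicate 2, the range when 1 library was left out being 4 to 8. The members called in that comparison numbered 15, with 11 to 15 when 1 library was left out and 14 to 17 in the other alternatives. In fed 3 h against unfed cells they numbered 24 (21 to 25 and 23 to 25), and in fed 24 h against fed 3 h cells 27 (23 to 28 and 25 to 28). Over the members, calls were lost for 20, 16 and 20 values and gained for 9, 12 and 6, in the order of fed 24 h against unfed, fed 3 h against unfed and fed 24 h against fed 3 h. Members under 1 CPM (Aldoc, Slc16a3, Ankrd37 and Egln3) are limited by depth.

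No pairing of the libraries by replicate number was seen. Deviations of same-numbered libraries from their group means correlated at −0.16 to 0.06, and those of differently numbered libraries at −0.10 to 0.10. With 3 libraries per group, such values cannot show that the libraries were unpaired. With the replicate block, 15, 23 and 26 members were called in the same order, and 2 calls were lost, Pfkfb4 at 3 h (0.15, adjusted p 0.0621) and Slc16a3 between the fed groups (1.03, adjusted p 0.0649).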
